A study of Mus musculus with 7 samples.

Results

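The 10 genes described here are members of the circadian clock loop, namely Per1, Per2, Per3, Cry1, Cry2, Arntl, Npas2, Nr1d1, Dbp and Ciart. They were taken by gene symbol from the count files, and all 10 were found among the 24421 symbols listed. All 10 were among the 16905 genes that passed the filter on low counts. They were measured by RNA sequencing of cerebellar tissue from C57BL/6 mice. The knockout group, titled CicKO, held 4 libraries with the genotype En1-Cre; Cicflox/flox. The control group, titled Wildtype, held 3 libraries with the genotype Cicflox/+, so the controls carried 1 floxed Cic allele and no Cre was named for them. En1 drives Cre in the embryonic midbrain and hindbrain, and cells outside that lineage keep Cic. Any effect of Cre itself and the loss of Cic cannot be told apart. The labels give no age, sex, litter or time of day of dissection, and they do not state that each library came from a separate animal, so the p-values may measure technical spread alone.

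The clock is a feedback loop of transcription. ARNTL (also called BMAL1) pairs with CLOCK or with its relative NPAS2 and switches on genes through E-box sequences. Among these genes are the Per and Cry genes, whose proteins return to the nucleus and inhibit the ARNTL pair, and Nr1d1, whose protein represses Arntl. DBP is an output of the loop that acts on D-box sequences, and CIART is a further inhibitor of the ARNTL pair. Because each gene peaks at its own hour, the levels in a tissue taken at a single moment depend on the phase of its clock. Per1 and Per2 also respond to stimuli such as CREB signalling and glucocorticoids. The question was whether Per2 differed between knockout and control by itself or together with the clock phase of each library.

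The promoters of 9 of the 10 genes were found in the RefSeq sequences used here (build GRCm38.p6), and Per2 was not among them. In each, the 250 bases before the annotated start were searched on both strands for the E-box CACGTG, its variant CACGTT, the D-box TTATGTAA, the ROR element TAGGTCA, the cyclic AMP element TGACGTCA and the CIC octamers TGAATGAA and TGAATGGA. The sequences are shown for the 4 members whose levels varied most closely with Per2 across libraries. Capitals mark E-boxes, variant E-boxes and D-boxes on either strand. Cry1 lies at chr10:85185055-85185304, Nr1d1 at chr11:98775378-98775627, Per3 at chr4:151044666-151044915 and Ciart at chr3:95882229-95882478, all on the minus strand.
Cry1: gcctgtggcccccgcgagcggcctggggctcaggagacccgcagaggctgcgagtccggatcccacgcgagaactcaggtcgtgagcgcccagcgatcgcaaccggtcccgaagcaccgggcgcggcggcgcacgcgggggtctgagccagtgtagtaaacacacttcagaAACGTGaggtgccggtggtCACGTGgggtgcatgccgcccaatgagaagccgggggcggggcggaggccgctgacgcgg
Nr1d1: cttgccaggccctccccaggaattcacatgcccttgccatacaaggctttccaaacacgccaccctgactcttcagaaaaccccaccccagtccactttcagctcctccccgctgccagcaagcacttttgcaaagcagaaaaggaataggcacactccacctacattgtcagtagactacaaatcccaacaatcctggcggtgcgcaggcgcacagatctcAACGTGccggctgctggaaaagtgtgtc
Per3: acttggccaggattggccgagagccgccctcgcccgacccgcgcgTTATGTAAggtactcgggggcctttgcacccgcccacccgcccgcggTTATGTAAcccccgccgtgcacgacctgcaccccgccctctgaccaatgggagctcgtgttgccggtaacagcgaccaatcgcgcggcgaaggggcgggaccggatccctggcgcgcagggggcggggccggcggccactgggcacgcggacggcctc
Ciart: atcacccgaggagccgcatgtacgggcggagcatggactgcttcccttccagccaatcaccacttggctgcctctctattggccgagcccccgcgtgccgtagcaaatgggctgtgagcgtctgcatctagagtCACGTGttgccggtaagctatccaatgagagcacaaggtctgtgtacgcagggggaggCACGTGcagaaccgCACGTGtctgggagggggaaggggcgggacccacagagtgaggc
The Ciart window held 3 E-boxes and the Cry1 window 1 E-box and 1 variant E-box. The Nr1d1 window held 1 variant E-box and the Per3 window 2 D-boxes. Outside these 4, Per1 had 1 E-box in the first of its entries, Cry2 had 1 variant E-box, and the windows of Dbp, Arntl and Npas2 held none of the motifs. Among all 32851 promoter windows, 6.02% held the E-box, 3.85% the variant E-box and 0.819% the D-box. The ROR element occurred in 2.23%, the cyclic AMP element in 1.55% and a CIC octamer in 2.07%, and none of these 3 was present in the windows of the 9 members. A match is a description of letters and not a measured site.

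Each library held between 102653765 and 121285349 counts in genes. The lowest member, Npas2, had 340 to 475 counts per library, and no other member had fewer than 2137. Cic was lower in every library labelled CicKO, with 146 ± 1.33 CPM (counts scaled to a common library size by TMM) in knockouts and 232 ± 22.2 CPM in controls (SD, n = 4 and 3). The log2 fold change was -0.66 (SE 0.0622, edgeR adjusted p = 0.00256). The libraries numbered 3 stood apart in both groups through choroid plexus transcripts. The 8 markers of this tissue summed to 12042 CPM in knockout 3 and to 206 to 305 CPM in the other knockouts, and to 8300 CPM in control 3 and to 236 and 364 CPM in the other controls. Summed Purkinje and granule neuron markers overlapped between groups, with 7439 to 10567 CPM in knockouts against 7656 to 9108 CPM in controls for the 6 Purkinje genes. The sum of the 6 Bergmann glia and astrocyte markers did not overlap, at 1975 to 2284 CPM in knockouts and 2646 to 2700 CPM in controls. Singly, 2 of 6 were called lower (Gdf10 and Aqp4), where 0.828% of all genes were called lower. Slc1a3, Gfap and Aldh1l1 were not called but, like these 2, lay below the controls without overlap, a property of 8.36% of all genes. Hopx overlapped and had a log2 fold change of 0.15. The sum of the 6 markers of midbrain and hindbrain monoamine neurons did not overlap either, at 42.6 to 73.3 CPM in knockouts and 17.9 to 37.8 CPM in controls. Most of this sum was Th, at 31.5 to 63.3 CPM in knockouts and 10.8 to 29.4 CPM in controls. Of these 6, 5 were tested and 1 was called higher, Tph2, the gene of serotonin synthesis (log2 fold change 2.26, adjusted p = 0.0227). Over all genes, 1.25% were called higher. Taken singly, only Tph2 and Th lay above the controls, a property of 7.04% of all genes. Slc6a4, Slc6a3, Dbh and Slc18a2 overlapped, and Slc18a2 had a log2 fold change of -0.16. The part of these 2 lists in the clock values was not tested.

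Per2 was the member with the largest difference between groups, and it was higher in every knockout than in any control. Per2 (chromosome 1, 91415982 to 91459324, minus strand; GENCODE M21 on GRCm38, as for all genes here) encodes a core inhibitor of the loop. Its level was 97.2, 132, 150 and 128 CPM in knockouts 1 to 4 and 69.2, 78.5 and 94.6 CPM in controls 1 to 3. The groups did not overlap, although knockout 1 and control 3 were close. The means were 127 ± 22.0 CPM in knockouts and 80.7 ± 12.9 CPM in controls (SD, n = 4 and 3), a 1.57-fold difference. In edgeR's quasi-likelihood test with genotype as the only term, the log2 fold change of 0.65 (SE 0.161) had an unadjusted p of 0.0043 and did not pass after Benjamini-Hochberg adjustment over all genes (adjusted p = 0.0993). In bulk tissue, a change in the number of cells that express Per2 and a change in RNA per cell cannot be told apart.

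**Figure D1:**
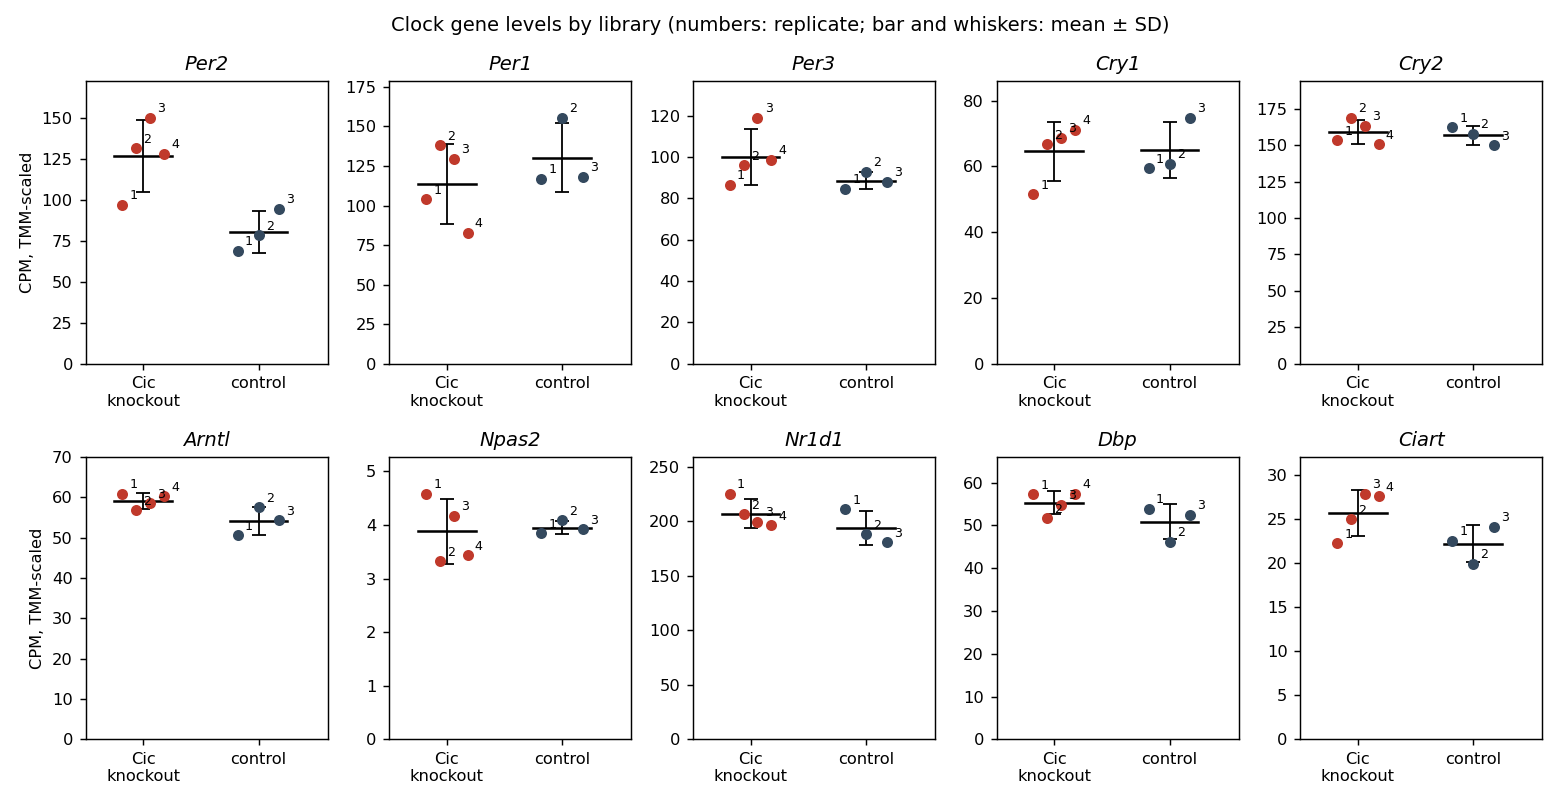
Each panel plots the TMM-scaled CPM of a clock gene in the 4 knockout libraries (left, red) and the 3 control libraries (right, dark blue), with replicate numbers beside the points and the mean ± SD in black. Per2 is the only panel without overlap between the groups, at 97.2 to 150 CPM in knockouts and 69.2 to 94.6 CPM in controls.

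Of the 10 members, 0 were called in edgeR at an adjusted p below 0.05, while 2.08% of all genes tested were called (1.25% higher and 0.828% lower). At an unadjusted p below 0.05 there was 1 member, Per2, against 16.2% of all genes. DESeq2 called 1 member higher, again Per2 (7.3% of all genes called), and limma-voom called 0. Per2 was also the only member whose groups did not overlap, a property of 15.4% of all genes, with the knockouts above in 7.04% and below in 8.36%. Log2 fold changes were positive for 7 members and negative for 3, with a median of 0.11 for the members and -0.0044 for all genes tested. A positive sign was found for 48.8% of all genes. The member counts are thus near the shares over all genes.

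The call of Per2 depended on how spread between libraries was handled. When replicate number was fitted as a block over the 3 numbers shared by both groups, which leaves out knockout 4, Per2 had a log2 fold change of 0.64 (SE 0.0625) and passed (adjusted p = 0.00207). With the block, 3.02% of all genes and 1 of the 10 members were called. The labels do not say that libraries sharing a number are pairs. Per2 was higher in the knockout in 3 of 3 same-numbered pairs, by 1.41-fold, 1.68-fold and 1.59-fold for numbers 1, 2 and 3. Because the groups did not overlap, any pairing would give 3 of 3, so this count is no further support. In both groups the library numbered 1 had the lowest Per2 and the library numbered 3 the highest. Without both libraries numbered 3, the difference was as large (log2 fold change 0.69, SE 0.142, adjusted p = 0.0759), and after adjusting for the mean log2 CPM of the choroid plexus markers it was 0.70 (SE 0.103) and passed (adjusted p = 0.0134). Reads in no annotated gene made up 18.2% to 19.0% of entries in knockouts and 16.0% to 18.6% in controls, and with this percentage as a covariate the log2 fold change was 0.56 (SE 0.268, adjusted p = 0.605).

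The other Period genes overlapped between the groups. Per1 (chromosome 11, 69095217 to 69109960, plus strand) encodes a second inhibitor and is the Period gene best known for rapid induction by stimuli. Per1 was at 104, 138, 130 and 82.9 CPM in knockouts 1 to 4 and at 117, 155 and 118 CPM in controls 1 to 3. Its groups overlapped, with the highest library a control and the lowest knockout 4 (log2 fold change -0.20, SE 0.191, adjusted p = 0.668). Per3 (chromosome 4, 151003652 to 151044665, minus strand), the least essential Period gene for rhythm in mice, was at 86.5, 96.0, 119 and 98.6 CPM in knockouts 1 to 4 and 84.5, 92.9 and 88.1 CPM in controls 1 to 3. Knockouts 2, 3 and 4 lay above all controls and knockout 1 lay among them (log2 fold change 0.18, SE 0.0991, adjusted p = 0.432). In the same-numbered pairs Per3 was higher in the knockout in 3 of 3, by 0.032, 0.048 and 0.43 on the log2 scale for numbers 1, 2 and 3. With the replicate block Per3 was not called (adjusted p = 0.354), and the numbers are not known to mark pairs.

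The Cryptochrome genes, whose proteins act with PER as the main repressors of the ARNTL pair, were at nearly equal mean levels in both groups. Cry1 (chromosome 10, 85131700 to 85185064, minus strand) was at 51.5, 66.8, 68.7 and 71.2 CPM in knockouts 1 to 4 and 59.4, 60.9 and 74.7 CPM in controls 1 to 3. Knockout 1 was the lowest library and control 3 the highest, and the means of 64.6 ± 8.89 CPM in knockouts and 65.0 ± 8.47 CPM in controls differed by far less than the spread (log2 fold change -0.0095, SE 0.125, adjusted p = 0.983). Cry2 (chromosome 2, 92403646 to 92434043, minus strand) ranged from 151 to 169 CPM in knockouts and from 150 to 162 CPM in controls (log2 fold change 0.022, SE 0.0538, adjusted p = 0.88). The sign of Cry1 and of Cry2 turned under several alternatives. In its exons Cry2 shares 4.67% of bases with D930015M05Rik on the opposite strand.

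The activators of the loop also overlapped between groups. Arntl (chromosome 7, 113207465 to 113314126, plus strand) was at 60.9, 56.7, 58.5 and 60.2 CPM in knockouts 1 to 4 and 50.7, 57.5 and 54.4 CPM in controls 1 to 3. Only knockout 2 lay within the range of the controls, and the mean difference was small (log2 fold change 0.12, SE 0.0556, adjusted p = 0.316). Npas2 (chromosome 1, 39193731 to 39363236, plus strand) was low throughout, at 4.59, 3.33, 4.18 and 3.44 CPM in knockouts 1 to 4 and 3.85, 4.09 and 3.92 CPM in controls 1 to 3. The controls lay inside the range of the knockouts (log2 fold change -0.026, SE 0.138, adjusted p = 0.95), and this sign also turned under several alternatives.

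The repressor and output genes that follow E-box drive overlapped between groups as well. Nr1d1 (chromosome 11, 98767932 to 98775333, minus strand), which encodes the nuclear receptor REV-ERB alpha, was at 226, 207, 200 and 197 CPM in knockouts 1 to 4 and 211, 189 and 181 CPM in controls 1 to 3 (log2 fold change 0.098, SE 0.0698, adjusted p = 0.539). Within the same-numbered pairs it was higher in the knockout in 3 of 3, by 0.095, 0.13 and 0.14 on the log2 scale for numbers 1, 2 and 3, yet with the replicate block it was not called (adjusted p = 0.317). Nr1d1 shares 8.55% of its exon bases with Thra on the opposite strand. Strand was not stated for the counting, so reads there cannot be assigned to either gene.

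Dbp (chromosome 7, 45705088 to 45710203, plus strand), a PAR bZIP factor with one of the widest daily swings of the loop in many tissues, was at 57.3, 51.7, 54.8 and 57.5 CPM in knockouts 1 to 4 and 53.9, 46.2 and 52.5 CPM in controls 1 to 3. The range over all 7 libraries was narrow, and the groups overlapped (log2 fold change 0.12, SE 0.0675, adjusted p = 0.426). In the same-numbered pairs Dbp was higher in the knockout in 3 of 3, by 0.088, 0.16 and 0.062 on the log2 scale for numbers 1, 2 and 3. With the replicate block Dbp was not called (adjusted p = 0.38). Dbp shares 18% of its exon bases with Sphk2 on the opposite strand. Ciart (chromosome 3, 95878503 to 95882251, minus strand) was at 22.3, 25, 27.9 and 27.6 CPM in knockouts 1 to 4 and 22.6, 20.0 and 24.1 CPM in controls 1 to 3. Knockouts 2, 3 and 4 lay above all controls and knockout 1 lay below control 1 (log2 fold change 0.21, SE 0.0966, adjusted p = 0.333).

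**Figure D2:**
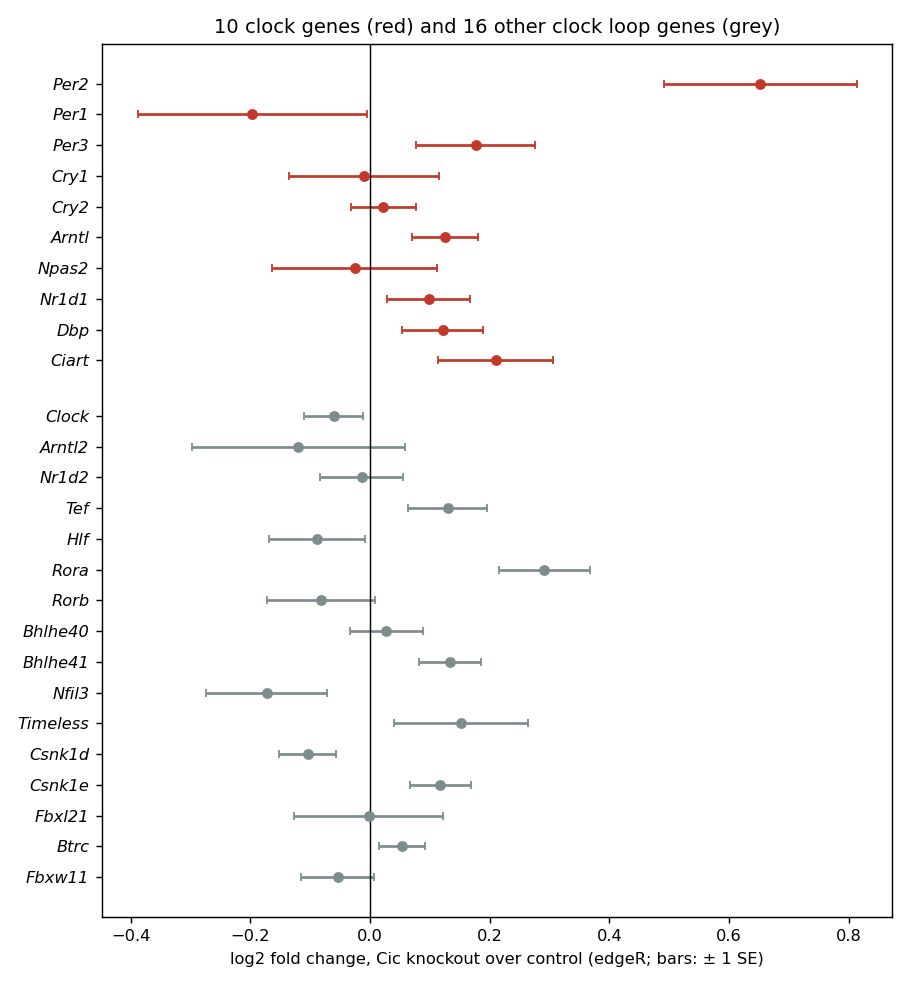
Points give the edgeR log2 fold change of knockout over control with ± 1 SE for the 10 clock genes (red) and 16 other genes of the clock loop (grey). Per2 stands at 0.65 and the next highest, Rora, at 0.29, while the other 9 of the red points lie between -0.20 and 0.21.

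Levels can be compared between genes only per length. Per kilobase of exon, the order of the members in the knockouts was Nr1d1, Cry2, Per2, Per1, Cry1, Dbp, Ciart, Per3, Arntl and Npas2. Nr1d1 reached 67.4 ± 4.21 CPM per kilobase in knockouts and 62.9 ± 5.10 in controls (SD, n = 4 and 3). Npas2 reached 0.811 ± 0.126 in knockouts and 0.825 ± 0.0259 in controls. Per2 averaged 21.7 ± 3.76 CPM per kilobase in knockouts and 13.8 ± 2.20 in controls. In the knockouts it stood beside Cry2 (25.2 ± 1.33), Per1 (20.2 ± 4.47), Cry1 (19.3 ± 2.66) and Dbp (18.5 ± 0.906), and neighbours among these 5 did not differ beyond their spread. In the controls it ranked below Cry2 (24.8 ± 1.00), Per1 (23.1 ± 3.87), Cry1 (19.5 ± 2.54) and Dbp (17 ± 1.38), and above Ciart, which averaged 11.4 ± 1.17 CPM per kilobase in knockouts and 9.83 ± 0.931 in controls. Exon lengths came from GENCODE M21, which may differ from the annotation the authors counted on.

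Whether Per2 changed differently from its partners was tested on the ratio of Per2 to each other member. The log2 ratio of Per2 to Cry1 averaged 0.97 ± 0.119 in knockouts and 0.31 ± 0.0785 in controls (SD, n = 4 and 3), a difference of 0.66. Every knockout lay above every control, and the two-sided exact permutation p of 0.0286 is the smallest that 4 libraries against 3 allow. The ratios to Per1, Per3 and Ciart also separated the groups without overlap, with differences of 0.86, 0.48 and 0.44 (exact permutation p = 0.0286 each). Adjusted over the 9 ratios, these 4 values became 0.0643, so none passed. The ratio to Cry2 did not overlap either (difference 0.62, exact permutation p = 0.0571, adjusted 0.0964). The ratios to Arntl, Npas2, Nr1d1 and Dbp overlapped through knockout 1, the only knockout inside the control range, with differences of 0.52, 0.68, 0.55 and 0.52 and exact permutation p-values of 0.0857, 0.0857, 0.0857 and 0.114. All 9 differences were positive, but they share Per2 and are not separate results.

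**Figure D3:**
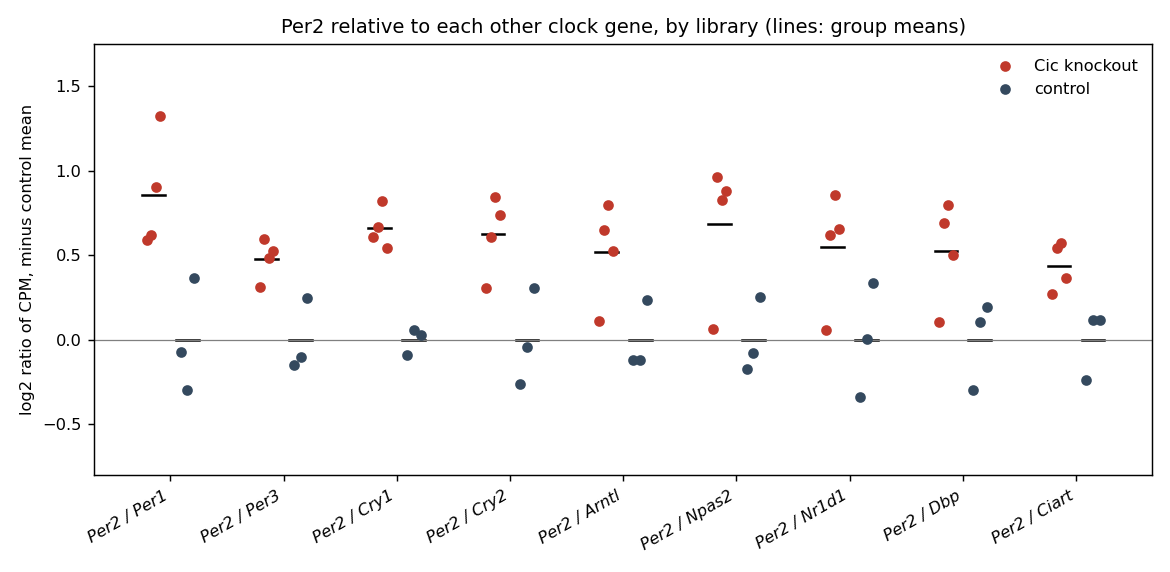
Each column shows the log2 ratio of Per2 CPM to the CPM of another clock gene in each library, minus the control mean of that ratio, for knockouts (left, red) and controls (right, dark blue), with lines at the group means. The knockout means stand 0.44 to 0.86 above the controls, and the groups separate in 5 of the 9 columns (Per1, Per3, Cry1, Cry2 and Ciart).

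Within the groups, the deviations of Per2 ran with or against those of several members, though no relation passed adjustment. After removal of the group means, Per2 followed Cry1 over the 7 libraries (Pearson r = 0.92, exact permutation p = 0.0417; Spearman rho = 0.82, p = 0.0625) and ran against Nr1d1 (r = -0.88, exact permutation p = 0.0278; rho = -0.71, p = 0.125). It also tended to follow Per3 (r = 0.77, exact permutation p = 0.0903; rho = 0.75) and Ciart (r = 0.74, exact permutation p = 0.139; rho = 0.82). Adjusted over the 17 relations computed, the values for Cry1 and Nr1d1 were 0.236 each, so none of these relations passed. Without the 2 libraries farthest from the median, knockout 1 and control 1 for both genes, r was 0.67 for Cry1 and -0.42 for Nr1d1, so the relation with Nr1d1 rests on those libraries. Without knockouts 1 and 3 the relation with Per3 dropped to 0.22, and without knockout 1 and control 2 that with Ciart was 0.56.

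With the remaining members, r was nearer to 0. Per2 had an r of 0.25 with Per1, 0.063 with Cry2, -0.046 with Arntl, -0.36 with Npas2 and -0.26 with Dbp, with exact permutation p-values between 0.556 and 0.924. Spearman's rho for these 5 lay between -0.39 and 0.21, and r without the 2 farthest libraries between -0.63 and 0.63. Dbp ran against Per1 (r = -0.83, rho = -0.89), where the exact permutation p of 0.00694 for r is the smallest that reordering within the groups allows, and its adjusted value was 0.118. With the most distant libraries, knockout 2 and control 2, left out, r was -0.70. For the other 7 partners of Dbp, p-values lay between 0.285 and 0.861 in the exact permutation test of r (r from -0.49 to 0.38, rho from -0.57 to 0.21). Without the 2 farthest libraries, those 7 r values spread from -0.84 to 0.95.

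**Figure D4:**
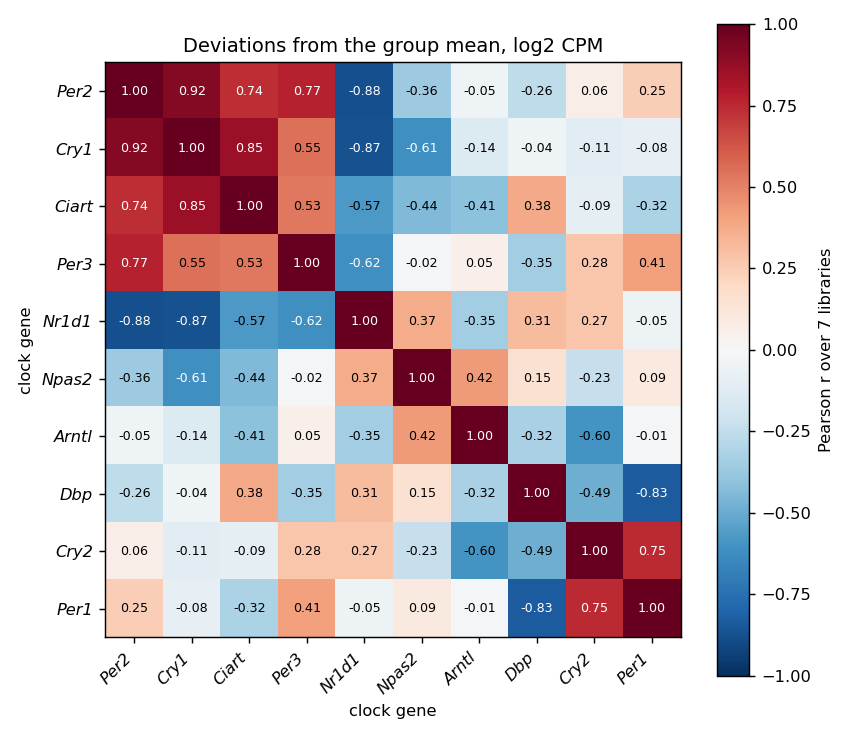
Each cell gives Pearson's r between 2 clock genes over the 7 libraries, computed on log2 CPM after subtracting each group's mean (red positive, blue negative). Per2, Cry1, Ciart and Per3 are positively related, with r from 0.53 to 0.92, and each is negatively related to Nr1d1.

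The genes whose deviations were most like those of Per2 included another clock gene. Among 11288 genes averaging 5 CPM or more, the highest r values were those of Cdh19 (0.99), Nr1d2 (0.99), Crem (0.98), Vcan (0.98), Skiv2l2 (0.98) and Txndc16 (0.98), and the lowest those of Polr3g (-0.99), Abhd16a (-0.99) and Akna (-0.98). Over these 7 libraries, 0.85% of the genes had an r above 0.9 with Per2. Nr1d2 encodes REV-ERB beta, the relative of NR1D1, and Crem encodes a modulator of CREB-driven transcription. Cry1 had the rank 64 from the top and Nr1d1 the rank 209 from the bottom. The genes most like Dbp were Asic2, Psmb10, Mt2, Sla, Cacul1 and Pddc1 (r from 0.97 to 0.98), those least like it were Lnx2, Nufip2 and Map3k3 (r from -0.98 to -0.99), and no member of the clock loop was among them.

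Nr1d2 had nearly equal means in both groups and can be set beside Per2 library by library. Nr1d2 was at 281, 315, 329 and 305 CPM in knockouts 1 to 4 and 295, 304 and 333 CPM in controls 1 to 3 (log2 fold change -0.014, SE 0.0688, adjusted p = 0.946). In both groups number 1 was the lowest and number 3 the highest, as for Per2. The ratio of Per2 to Nr1d2 CPM was 0.346, 0.418, 0.456 and 0.421 in knockouts 1 to 4 and 0.235, 0.258 and 0.284 in controls 1 to 3, and the groups did not overlap. With Nr1d2 as a covariate the log2 fold change of Per2 was 0.69 (SE 0.044, adjusted p = 0.000702), and with log2 Cry1 minus log2 Nr1d1 as a covariate it was 0.74 (SE 0.0707, adjusted p = 0.00766). Both covariates were chosen after the data had been seen, because they followed Per2, so these fits are no independent support.

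**Figure D5:**
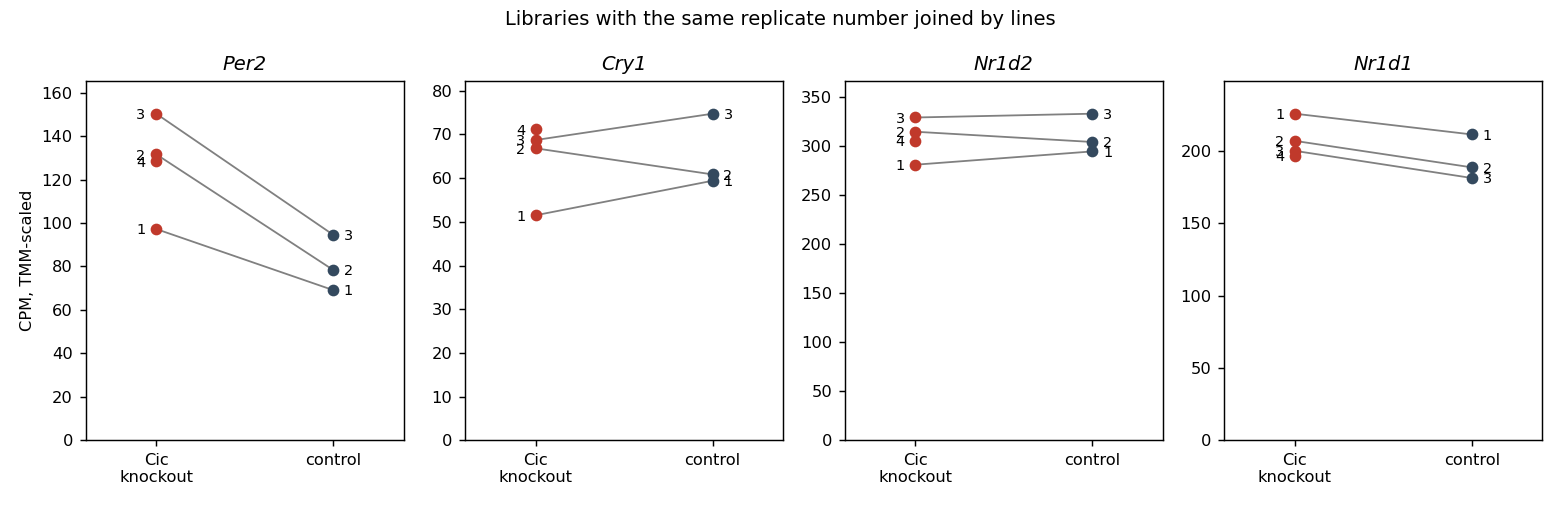
TMM-scaled CPM of 4 clock genes is plotted for knockouts (left, red) and controls (right, dark blue), with lines joining libraries of the same replicate number; knockout 4 has no partner. All 3 lines of Per2 are higher at the knockout end, by 1.41-fold to 1.68-fold, while those of Nr1d2 stay within 0.954-fold to 1.03-fold of level. The Per2 groups do not overlap, so any pairing would give this direction.

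Broader indices of clock state overlapped between the groups. The mean log2 CPM of Dbp, Nr1d1 and Ciart minus that of Arntl and Npas2 ranged from 1.98 to 2.23 in knockouts and from 1.86 to 2.18 in controls. An index with none of the 10 members, the mean log2 CPM of Nr1d2, Tef, Hlf and Usp2 minus that of Clock and Nfil3, ranged from 1.89 to 2.10 in knockouts and from 1.70 to 2.06 in controls. With these indices as covariates the log2 fold change of Per2 was 0.61 (SE 0.191, adjusted p = 0.173) and 0.56 (SE 0.158, adjusted p = 0.106). The difference stayed positive with either index and passed the threshold with neither. Within the groups Nr1d1 and Ciart, averaged in the first index, ran against each other (r = -0.57), so their deviations partly cancel in it. The second index contains Nr1d2, which closely followed Per2 (r = 0.99). Overlap of the indices therefore cannot show that the clock phase was equal. No time of dissection was given for any library, so a phase in hours was not estimated.

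Of 16 other genes of the clock loop, 0 were called in edgeR, where 2.08% of all genes were called. Before adjustment, 3 were higher and 0 lower with p below 0.05, against 16.2% of all genes in either direction. The median log2 fold change of the 16 was -0.0084. DESeq2 called 1 of them higher, where it called 7.3% of all genes in either direction, and limma-voom called 0. These counts are near the shares over all genes. The 3 genes were Rora, the nuclear receptor that activates Arntl against NR1D1 and is abundant in Purkinje cells (491 ± 40.8 CPM in knockouts and 401 ± 18.6 CPM in controls, log2 fold change 0.29, SE 0.0759, adjusted p = 0.102), Bhlhe41 (0.13, adjusted p = 0.255), an E-box repressor, and Csnk1e (0.12, adjusted p = 0.305), a kinase that phosphorylates PER proteins. DESeq2 called Rora (adjusted p = 0.0036), as did edgeR without knockout 3 (0.0226) and without both libraries numbered 3 (0.0435). Rora and, by a narrow margin, Btrc lay above the controls without overlap, a property of 7.04% of all genes. All 6 Purkinje markers had positive log2 fold changes, from 0.052 to 0.25, with 0 called, and their part in the Rora value was not tested.

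The rest of this list was not called. The activator partner Clock had a log2 fold change of -0.061 and Arntl2, a relative of Arntl, -0.12. The D-box factors Tef and Hlf had 0.13 and -0.089, and Nfil3, which represses at the same sequence, -0.17. The ROR receptor gene Rorb had -0.083, the E-box repressor Bhlhe40 0.027 and Timeless 0.15. Among regulators of PER and CRY stability, Csnk1d had -0.10, and the F-box genes Fbxl21, Btrc and Fbxw11 had -0.0025, 0.054 and -0.054. Adjusted p-values in edgeR for these genes lay above that of Rora.

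Output genes that cycle in many organs were not called either. Of 12, 0 passed in edgeR, DESeq2 or limma-voom, where edgeR called 2.08% and DESeq2 7.3% of all genes. The median log2 fold change was -0.056. At an unadjusted p below 0.05 in edgeR, 2 were higher and 2 lower, against 16.2% of all genes in either direction. Of the 12, 0 lay above and 2 below the controls without overlap, where 7.04% and 8.36% of all genes did. The 4 with the smallest adjusted p were Pfkfb3 (-0.13, adjusted p = 0.269), a regulator of glycolysis, Fmo2 (0.36, 0.298), Klf10 (0.34, 0.304) and Wee1 (-0.15, 0.305), the mitotic kinase gene.

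Genes of the stimuli known to act on Per1 and Per2 were set beside the clock. Of 11 glucocorticoid response genes, 2 fell and 0 rose, where 0.828% of all genes were called lower. At an unadjusted p below 0.05 in edgeR, 7 were lower and 0 higher, against 16.2% of all genes in either direction. Of the 11, 6 lay below the controls without overlap, a property of 8.36% of all genes. The log2 fold change was positive for 2 and negative for 9, with a median of -0.31, where 48.8% of all genes were positive. The 2 called lower were metallothioneins. Mt1 averaged 140 ± 6.64 CPM in knockouts and 188 ± 12.7 CPM in controls (log2 fold change -0.43, SE 0.0591, adjusted p = 0.0124). Mt2 averaged 92.9 ± 6.59 CPM in knockouts and 126 ± 10.8 CPM in controls (-0.44, SE 0.0742, adjusted p = 0.0256). Metallothionein genes also respond to metals and are abundant in astrocytes. Fkbp5, a co-chaperone of the glucocorticoid receptor, was at 7.76 ± 1.05 CPM in knockouts and 12.4 ± 2.70 CPM in controls (-0.68, adjusted p = 0.0767), and Tsc22d3, also called GILZ, had -0.27 (adjusted p = 0.0768). Sgk1 overlapped between the groups (-0.34, adjusted p = 0.297). With the replicate block 5 of the 11 were lower, namely Fkbp5 (adjusted p = 0.0369), Tsc22d3 (0.0339), Sgk1, Mt1 and Mt2. DESeq2 also called 5 and limma-voom 2; over all genes, 3.02% were called with the block and 7.3% in DESeq2. The call of Mt1 was lost without knockout 4 (adjusted p = 0.0565), control 1 (0.063) or control 3 (0.0636), and that of Mt2 without knockout 1 (0.0752), knockout 2 (0.0578), knockout 4 (0.0673), control 1 (0.126) or control 3 (0.117). It was also lost for Mt1 when adjusting for reads in no gene (0.156) or for Xist (0.0527), and for Mt2 with these terms (0.324 and 0.093), with Cry1 minus Nr1d1 (0.0598) and without both libraries numbered 3 (0.0774). The log2 fold changes themselves stayed negative, from -0.48 to -0.37 for Mt1 and from -0.51 to -0.39 for Mt2 when 1 library was left out, and -0.32 and -0.31 when adjusting for reads in no gene. The summed astrocyte markers, also lower in the knockouts, are given with the libraries above, and their part in these values was not tested.

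Activity and CREB response genes were not called between the groups. Fos, an immediate early gene, was at 70.9, 101, 32.2 and 35 CPM in knockouts 1 to 4 and 60.5, 97.5 and 27.6 CPM in controls 1 to 3, so the libraries numbered 2 were highest and those numbered 3 lowest in both groups. Nr4a1, also an immediate early gene, was at 42.6, 64.9, 35.3 and 25.5 CPM in knockouts 1 to 4 and 41.2, 66.5 and 29.3 CPM in controls 1 to 3. Per1 was also highest in the library numbered 2 of each group. Of 12 genes 0 were called in edgeR, where 2.08% of all genes were called, and limma-voom called 0. At an unadjusted p below 0.05 in edgeR, 1 was lower and 0 higher, against 16.2% of all genes in either direction. DESeq2 tested 11 of them and called 1 lower, Crem, where it called 7.3% of all genes. The log2 fold change was negative for 11 and positive for 1, with a median of -0.16, where 48.8% of all genes were positive. Of the 12, 2 lay below the controls without overlap, a property of 8.36% of all genes. The 4 with the smallest adjusted p were Crem (log2 fold change -0.31, edgeR adjusted p = 0.153), Sik1 (-0.39, 0.429), Fosb (-0.79, 0.563) and Dusp1 (-0.39, 0.695).

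Of 8 temperature response genes, 1 fell and 0 rose, where 0.828% of all genes were called lower and 1.25% higher. Hsph1, a chaperone of the HSP110 family, averaged 119 ± 2.31 CPM in knockouts and 146 ± 8.54 CPM in controls (log2 fold change -0.30, SE 0.0477, adjusted p = 0.0227). This call was lost without knockout 1 (0.0858), knockout 2 (0.0714), knockout 4 (0.0745), control 1 (0.097) or control 3 (0.0829), and when adjusting for reads in no gene (0.256) or for Xist (0.0777). Its log2 fold change was -0.33 to -0.25 when 1 library was left out, -0.23 when adjusting for reads in no gene and -0.31 with Xist. DESeq2 called 2 of the 8 lower, where it called 7.3% of all genes in either direction, and limma-voom 1. The chaperone genes Dnajb1 and Hspa1b had -0.31 and -0.63 (adjusted p = 0.112 and 0.167). Cirbp, a cold-inducible RNA-binding protein gene that is also known to shape clock amplitude, had 0.23 (adjusted p = 0.23).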

How the data were processed

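The counts deposited by the authors are raw, 1 file per library, with a row for each gene symbol. The submitters' processing notes name build mm10 and the tools HTSeq, DESeq2 and STAR (2.5.3a). Per the labels' protocols, cDNA was amplified from poly(A) and random primers, and such reads are not independent molecules. The annotation, the strand setting and other versions remain not given in the sources used here. Total counts in genes ran from 102653765 to 121285349 per library, so 3 counts equal 0.0247 to 0.0292 CPM, which covers counting error only. The 5 HTSeq summary rows stayed out of library sizes and tests; reads in no gene were 16.0% to 19.0%, ambiguous ones 1.27% to 1.37% and multiply aligned ones 12.0% to 13.7%.

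Counts were filtered with filterByExpr, scaled by TMM and tested with the robust quasi-likelihood F test in edgeR 4.0.16 (R 4.3.3) with genotype as the only term. Adjusted p-values are Benjamini-Hochberg over all 16905 genes, called below 0.05, and come from this test unless another is named. The SE is the absolute log2 fold change over the square root of F. Log2 CPM used a prior count of 2. Alternatives used DESeq2 1.42.0, limma-voom 3.58.1, other filters and scaling, covariates, a replicate block and omitted libraries. The code was tested on simulated counts.

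After subtracting each group's mean, libraries sharing a number had correlations of 0.145, 0.288 and 0.713 over all genes. Each exceeds 0.1, the threshold for treating numbers as pairs, so the blocked value is given where it changes a call. Nothing in the labels explains the numbers. Some libraries of unlike number also exceeded 0.1. Knockout 1 with control 2 reached 0.319, knockout 4 with control 2 reached 0.297 and knockout 4 with control 1 reached 0.187. The other unlike numbers lay between -0.529 and 0.0485. The correlations therefore do not show that numbers 1 and 2 mark pairs, and the libraries numbered 3 share high choroid plexus transcripts. Named genes were the members, Cic, the other clock loop genes listed, up to 4 genes per further list by adjusted p, and the 6 genes most and 3 least like Per2 and Dbp. Fos, Nr4a1 and the ratio to Nr1d2 were added after their values were seen. Some further genes of the clock are not reported here. The members and lists were chosen with earlier results of these data known.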

Additional observations from a re-analysis of the deposited data

How the results depend on the processing

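Over 21 alternatives Per2 kept its direction, with log2 fold changes of 0.56 to 0.78 and adjusted p-values of 0.000491 to 0.605. It passed in 5 of them: DESeq2 (log2 fold change 0.66), the replicate block (0.64), the choroid plexus score as covariate (0.70, adjusted p = 0.0134), Nr1d2 as covariate (0.69) and Cry1 minus Nr1d1 as covariate (0.74). In each of these 5 the number of members called was 1, Per2. The covariates Nr1d2 and Cry1 minus Nr1d1 were chosen because they followed Per2 in these same libraries, so their passes are no independent support. The replicate block treats libraries sharing a number as pairs, which the labels do not state. Leaving out 1 library at a time gave Per2 log2 fold changes of 0.56 to 0.78, with adjusted p-values from 0.0567 without knockout 1 to 0.309 without control 1, and called 0 members. The replicate block changed no other call among the members. Among the glucocorticoid response genes it added Fkbp5, Sgk1 and Tsc22d3. The number of genes called over all genes, 352, was 1180 in DESeq2, 752 with the index of non-member clock genes, 58 with the percentage of reads in no gene, 686 with the choroid plexus score, 104 with Xist and 185 with Cry1 minus Nr1d1. It ranged from 86 without knockout 1 to 842 without knockout 3. It was 156 without knockout 2, 107 without knockout 4, 102 without control 1, 576 without control 2 and 102 without control 3. For the ratios of Per2 to the other 9 members, omitting a library, the libraries numbered 3 or changing the prior count reversed 0 differences; with omitted libraries no exact test can reach 0.05. Signs turned only for genes that were not called; their ranges under single omissions come last for each. Cry1 was positive with the choroid plexus score (0.021), Xist (0.031), Nr1d2 (0.018) and without the libraries numbered 3 (0.071), with single omissions from -0.065 to 0.10. Cry2 was -0.023 without the libraries numbered 3, with single omissions from -0.0094 to 0.055. Npas2 was 0.018 with the replicate block, 0.0055 with the non-member index, and -0.12 to 0.042. Nr1d2 was 0.0029 with the choroid plexus score, 0.00059 with Xist, 0.0041 without the libraries numbered 3, 0.018 with Cry1 minus Nr1d1, and -0.049 to 0.038. Arntl2 was 0.050 and 0.036 with the clock indices and -0.27 to 0.11. Bhlhe40 was -0.00038 with the replicate block, -0.0058 and -0.023 with the indices, and -0.026 to 0.080. Fbxl21 was 0.0019 in DESeq2, 0.0012 in limma-voom, 0.00078 with a filter of 1 CPM, 0.033 with the replicate block, 0.090 and 0.036 with the indices, 0.0022 with the choroid plexus score, 0.068 without the libraries numbered 3 and -0.089 to 0.054. With the percentage of reads in no gene, Hlf was 0.021 and Rorb 0.021. Under single omissions Fosb ran from -1.13 to 0.14 and Dusp1 from -0.70 to 0.013, both positive only without control 2, and Dusp1 was 0.014 with the non-member index. The cause of these changes was not tested.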
